A study of Mus musculus with 6 samples.

Results

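The subject is a set of 10 transcription factor genes of blood stem cells and of the red cell and platelet lineages: Gata1, Gata2, Tal1, Lmo2, Lyl1, Fli1, Erg, Nfe2, Gfi1b and Zfpm1. They were chosen by name, as rows of the deposited gene table, and all 10 were among its 47593 gene rows. RNA came from mouse marrow cells of the femur, sorted for c-Kit, a growth factor receptor of early blood cells (gene Kit), infected with a neomycin-selectable MSCV retrovirus carrying MLL-AF9, selected with G418 and passaged in methylcellulose with cytokines. MLL-AF9 is a leukaemia fusion protein, and both groups carried it: 3 libraries with its AF9 part unchanged (WT) and 3 with the E531R substitution in AF9, which the series title ties to loss of binding to the corepressor BCOR. There was no group without the fusion. The labels give neither animal age nor strain, nor whether replicates were separate cultures, so p-values measure only the spread between these libraries, which may be technical.

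These factors work on DNA in shared assemblies. TAL1 or its relative LYL1 pairs with an E protein and is joined through the adaptor LMO2 and the bridging protein LDB1 to a GATA factor, while RUNX1 and the ETS factors FLI1 and ERG bind close by at many of the same enhancers of stem and progenitor cells. GATA2 acts in stem, progenitor and mast cells and gives way to GATA1 in red cell and megakaryocyte precursors, where FOG1 (gene Zfpm1), GFI1B and NFE2 join it. MLL-AF9 cells are blocked at a myelomonocytic stage.

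In E531R cells Tal1 and Gfi1b rose and Gata2 and Erg fell, while the most highly expressed factors, Lmo2, Lyl1, Nfe2 and Fli1, did not pass the test. Tal1 was 2.40-fold and Gfi1b 6.60-fold higher, Gata2 2.54-fold and Erg 1.68-fold lower (ratios of group means). The Gfi1b ratio rests on 10 WT reads in all and was 4.98 to 9.99 when 1 library was left out, the highest without WT replicate 3. Gata1 was close to absent in both groups, with 4 reads in all WT libraries together and 1 in all E531R libraries. Counted with limma at an adjusted p under 0.05, 2 of the 9 factors that could be tested were higher and 2 lower, 4 in all, beside 10.4% higher and 9.53% lower, or 19.9% in all, among all 12991 genes tested. The values of E531R lay wholly above those of WT for 3 of the 9 and wholly below for 3, where this was so for 21.2% and 22.8% of all tested genes, 44% together. The median log2 fold change of the 9 was 0.07, against 0.01 over all tested genes. Gata1 lay under the minimum mean value of 10 for testing, and Gfi1b reached that minimum only through its E531R values, so the counts describe these 9 genes and carry no further weight. Values are read counts per gene divided by 1 size factor per library, called normalised read counts here.

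**Figure D1:**
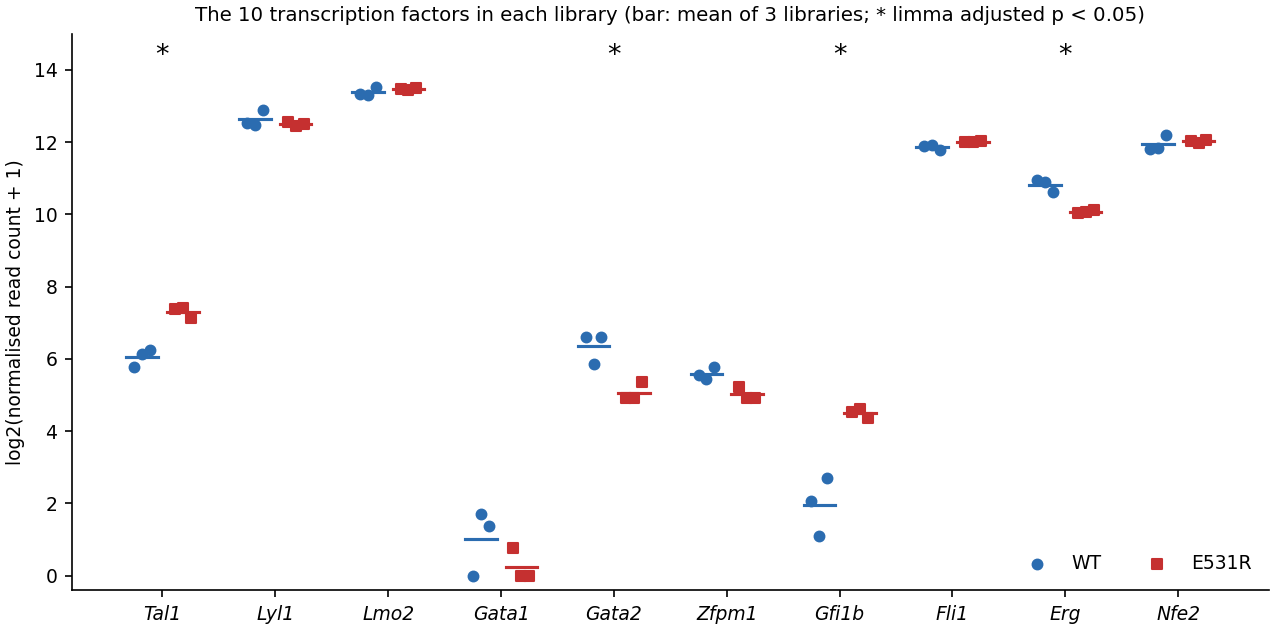
Normalised read count of the 10 factors on a log2(value + 1) y axis, where blue circles are the WT and red squares the E531R libraries, with a bar at each group mean and an asterisk where the limma adjusted p was under 0.05. The asterisks stand over Tal1, Gata2, Gfi1b and Erg, and the points of Lmo2 lie near the top in both groups.

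The libraries held 14161139 to 33459668 reads assigned to genes. WT replicate 3 differed most from its group: the median absolute log2 difference over tested genes was 0.31 and 0.33 between it and WT replicates 1 and 2, against 0.067 to 0.090 for all other pairs of the same group. Each result is therefore also given without it wherever a call changed. Kit, the gene used for enrichment, was high in both groups, at 3587 ± 100 in WT and 3335 ± 4.07 in E531R (SD, n = 3 per group), and passed only without WT replicate 3, at a log2 fold change of -0.11 (adjusted p = 0.0214 with limma). Markers of maturing myeloid cells moved with the groups. All 10 tested of 12 monocyte and macrophage markers rose, with a summed level of 5323 to 6180 in WT and 23135 to 25184 in E531R libraries, and all 11 tested of 12 neutrophil markers rose, with 7482 to 9790.0 and 70392 to 78063. Of all tested genes, 10.4% were higher. One of the neutrophil markers, Mmp9, reached the minimum mean only through E531R. The part of these markers in the results below was not tested. The RNA is from whole cultures, in which fewer cells of a type and less RNA per cell cannot be told apart.

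RefSeq holds start sites on GRCm38 for 7 of the 10 factors, with 11 windows of 250 bases before a start. For the 4 factors that passed the test, and for Lyl1 as the relative of Tal1 that did not, 1 window each is shown, 5′ to 3′ on the strand of the gene and ending just before the start. For Tal1 and Gata2 it is the outermost start listed, for Erg the one of its 3 starts with a match. Capitals mark GATAA (a core of GATA sites) and CCGGAA (a core of ETS sites), on either strand, so that TTATC and TTCCGG are the same letters read backwards.
Tal1, chr4:115056176-115056425, plus strand: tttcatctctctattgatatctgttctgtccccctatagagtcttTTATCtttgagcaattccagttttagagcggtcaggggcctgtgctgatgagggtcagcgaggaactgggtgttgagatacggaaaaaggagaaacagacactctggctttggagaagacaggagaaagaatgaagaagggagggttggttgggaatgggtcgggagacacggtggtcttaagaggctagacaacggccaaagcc
Gfi1b, chr2:28621983-28622232, minus strand: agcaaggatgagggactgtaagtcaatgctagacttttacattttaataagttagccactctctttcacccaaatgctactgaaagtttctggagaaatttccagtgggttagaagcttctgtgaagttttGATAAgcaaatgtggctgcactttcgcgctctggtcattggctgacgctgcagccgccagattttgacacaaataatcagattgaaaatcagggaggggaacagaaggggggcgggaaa
Erg, chr16:95459349-95459598, minus strand: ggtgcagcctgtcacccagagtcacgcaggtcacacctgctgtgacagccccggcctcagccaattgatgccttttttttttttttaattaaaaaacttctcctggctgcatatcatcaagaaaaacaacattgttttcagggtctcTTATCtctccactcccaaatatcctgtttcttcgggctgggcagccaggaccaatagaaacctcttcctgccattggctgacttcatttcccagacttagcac
Gata2, chr6:88193641-88193890, plus strand: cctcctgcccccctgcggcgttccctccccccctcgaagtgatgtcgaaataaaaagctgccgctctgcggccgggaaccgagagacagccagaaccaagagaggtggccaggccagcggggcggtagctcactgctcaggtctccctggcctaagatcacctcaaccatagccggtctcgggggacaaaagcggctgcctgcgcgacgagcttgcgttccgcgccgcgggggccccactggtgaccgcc
Lyl1, chr8:84701207-84701456, plus strand: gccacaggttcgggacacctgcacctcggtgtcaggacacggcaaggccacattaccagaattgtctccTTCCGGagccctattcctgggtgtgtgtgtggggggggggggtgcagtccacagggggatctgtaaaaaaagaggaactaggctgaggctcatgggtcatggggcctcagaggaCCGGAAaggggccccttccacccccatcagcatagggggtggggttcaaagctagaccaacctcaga
The letters GATAA were found in 3 of the 11 windows, those of Tal1, Gfi1b and Erg shown, starting 205, 119 and 103 bases before the start, and in 22.6% of 32841 windows of all genes. The letters CCGGAA were found only in the Lyl1 window, at 181 and 67 bases before the start, and in 12.0% of all windows. The E-box forms CAGCTG and CAGATG, in 25.5% of all windows, and the NFE2 core TGAGTCA, in 4.46%, were in none of the 11, again on both strands. The second Tal1 start, both Gata2 starts, the other two Erg starts and the windows of Gata1 and Zfpm1 held none of these letters. These are matches of letters and not measured binding, and gene counts do not show which start was used.

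Among the GATA factors and their cofactor, Gata2 passed the test. Gata2, on chromosome 6 (88193891 to 88207032), had normalised read counts of 95.8, 57.4 and 96.0 in WT replicates 1, 2 and 3 and of 29.2, 29.2 and 39.9 in E531R. All 3 E531R values lay below the lowest WT value, that of WT replicate 2. Its mean went from 83.1 ± 22.2 to 32.8 ± 6.19 (SD, n = 3 per group), or a log2 fold change of -1.29 (adjusted p = 0.0119 with limma; SE 0.25). These values rest on 50 to 122 reads per WT library and 30 to 42 per E531R library. The threshold was missed once E531R replicate 1 or 2 was left out (adjusted p = 0.0573 and 0.0567 with limma), with a log2 fold change of -1.22 in both cases. The authors' deposited table gives Gata2 a log2 fold change of -1.15 and an adjusted p of 0.00027.

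Gata1, the erythroid and megakaryocyte member on chromosome X (7959260 to 7978071), had 0, 2 and 2 reads in the WT libraries and 1, 0 and 0 in the E531R libraries. At such counts no difference between the groups was detectable at this depth, and no fold is given. Zfpm1, the gene of the GATA cofactor FOG1 on chromosome 8 (122282141 to 122337251), had 46.3, 42.5 and 53.5 in WT and 36.1, 29.2 and 29.2 in E531R. The groups did not overlap, yet the log2 fold change of -0.58 (SE 0.18) did not pass (adjusted p = 0.066 with limma; 0.0542 to 0.226 over its alternatives). Zfpm1 rests on 29 to 68 reads per library.

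In the core complex, Tal1 rose, and its relative Lyl1 and the adaptor Lmo2 did not pass. Tal1, a basic helix-loop-helix factor on chromosome 4 (115056426 to 115071755), had 54.3, 68.9 and 74.8 in WT and 166, 168 and 140 in E531R. Every E531R value was above every WT value. The mean rose from 66.0 ± 10.6 to 158 ± 15.7 (SD, n = 3 per group), or a log2 fold change of 1.26 (adjusted p = 0.00176 with limma; SE 0.16), and the call held in all 16 alternatives, with log2 fold changes of 1.12 to 1.35.

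Lyl1, the relative of Tal1 on chromosome 8 (84701457 to 84704715), had 5927, 5668 and 7638 in WT and 6052, 5567 and 5748 in E531R. The groups overlapped, and the highest value was that of WT replicate 3. Its log2 fold change was -0.14 (adjusted p = 0.48 with limma; SE 0.12), and it was -0.0026 without that library (adjusted p = 0.967). Lyl1 shares 4 exon bases with Nfix on the opposite strand. None of the other 9 factors shares exon bases with another gene in GENCODE M21.

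Lmo2, the LIM-domain adaptor that carries no DNA contact of its own, lies on chromosome 2 (103957986 to 103981878). It had 10280.2, 10162 and 11692 in WT and 11392, 11096 and 11578 in E531R, and the groups overlapped. The log2 fold change was 0.09 (adjusted p = 0.486 with limma; SE 0.079). It passed without WT replicate 3, at 0.15 (adjusted p = 0.00227).

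Set per kilobase of exon, Lyl1 was far above Tal1 in every library. The ratio of the per-kilobase level of Lyl1 to that of Tal1 was 266, 200.2 and 248 in the WT libraries and 88.6, 80.5 and 99.8 in E531R, with no overlap. The corresponding ratio of Lmo2 to Tal1 was 332 ± 44.7 in WT and 146 ± 18.1 in E531R (SD, n = 3 per group). Against Gata2, Tal1 stood at a per-kilobase ratio of 0.699, 1.48 and 0.96 in WT and of 7.01, 7.11 and 4.33 in E531R. Tal1 and Gata2 were thus near each other in WT and apart in E531R, and no further test was made on the ratios, whose parts are the values above.

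Of the ETS pair, Erg fell and Fli1 did not pass. Erg, on chromosome 16 (95359169 to 95586593), had 1994, 1889.8 and 1567 in WT and 1056, 1068 and 1119 in E531R. The E531R values lay within a narrow band below all WT values, the nearest of which was that of WT replicate 3. The mean went from 1817 ± 223 to 1081 ± 33.2 (SD, n = 3 per group), or a log2 fold change of -0.74 (adjusted p = 0.00245 with limma; SE 0.10). The call held in all 16 alternatives, at -0.84 to -0.67, and without WT replicate 3 the fall was -0.84 (adjusted p = 3.29e-10).

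Fli1, on chromosome 9 (32422204 to 32542861), had 3836, 3848 and 3549.9 in WT and 4128, 4141 and 4151 in E531R. Here all E531R values lay above the WT values. The log2 fold change of 0.15 (SE 0.064) did not pass (adjusted p = 0.17 with limma), and without WT replicate 3 it was 0.11 and passed (adjusted p = 0.0203). Per kilobase of exon, Fli1 stood at 2.06 ± 0.17 times Erg in WT and at 3.81 ± 0.11 times Erg in E531R (SD, n = 3 per group).

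The repressor Gfi1b and the bZIP factor Nfe2, both of red cell and platelet precursors, gave 1 rise and 1 value that did not pass. Gfi1b, on chromosome 2 (28609450 to 28621982), had 3.19, 1.15 and 5.51 in WT, from 2, 1 and 7 reads, and 22.2, 23.4 and 19.5 in E531R, from 32, 24 and 20 reads. Every E531R value was above every WT value. The log2 fold change was 2.54 (adjusted p = 0.00679 with limma; SE 0.44), on the log2(value + 1) scale, which understates changes of low genes. It was 2.11 to 2.91 when 1 library was left out and 1.27 with a pseudocount of 10, and the call held in all 15 alternatives that could test it. The authors' deposited table gives 1.52 with an adjusted p of 0.000468. Its fold changes of genes with few reads ran smaller than those here, so the sizes are unlike measures.

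Nfe2, on chromosome 15 (103248212 to 103258403), had 3561, 3688 and 4741 in WT and 4176, 4035 and 4307 in E531R, and the E531R values lay between those of WT replicates 2 and 3. Its log2 fold change was 0.07 (adjusted p = 0.691 with limma; SE 0.12). Without WT replicate 3 it passed, at 0.20 (adjusted p = 0.000476), and without WT replicate 1 it was -0.0036 (adjusted p = 0.985). Nfe2, Lmo2 and Fli1 are the 3 factors that joined the higher calls when WT replicate 3 was left out, which gave 5 higher and 2 lower of 9, beside 24.4% higher and 22.9% lower of all tested genes in that fit.

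**Figure D2:**
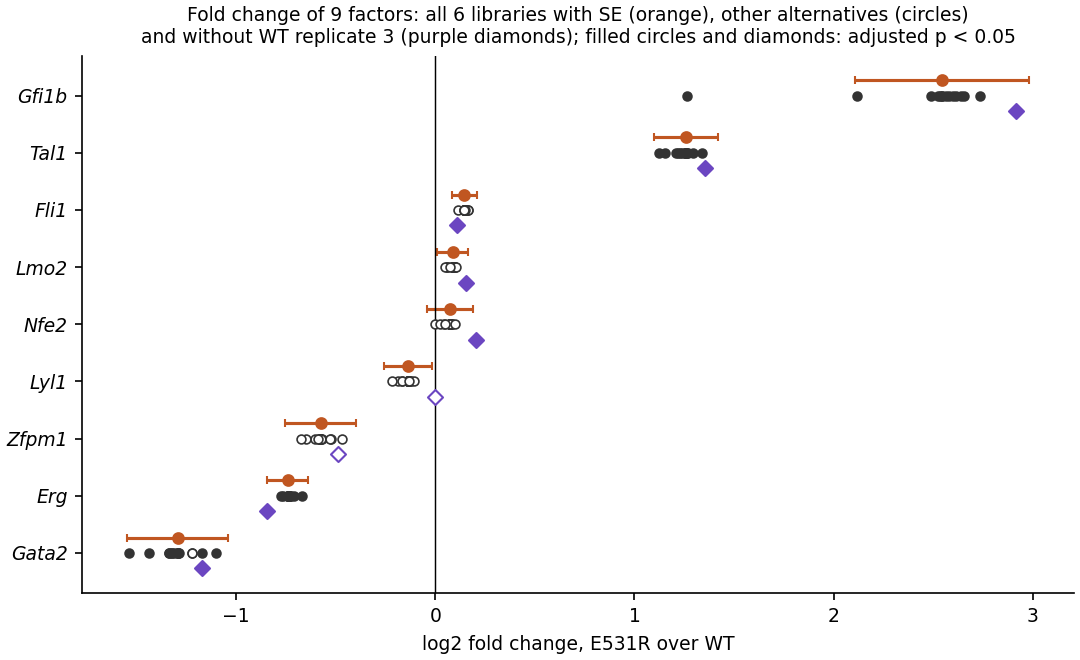
Log2 fold change of E531R over WT (x axis) of the 9 tested factors (rows). Orange points are the values over all 6 libraries with their SE, circles the other alternatives, and purple diamonds the fit without WT replicate 3; filled circles and diamonds had an adjusted p under 0.05. The diamonds of Nfe2, Lmo2 and Fli1 are filled while their circles are open, and 2 Gata2 circles at -1.22 are open.

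The order of levels per kilobase of exon was Lmo2, Lyl1, Nfe2, Fli1 and Erg in both groups. In WT these 5 stood at 4945 ± 393, 3562 ± 595, 1338 ± 217, 1074 ± 48.4 and 524 ± 64.3 normalised reads per kilobase (SD, n = 3). Each of these was separated from the next by ranges that did not overlap. Below them, Gata2 at 15.4 ± 4.12, Tal1 at 15.1 ± 2.41 and Zfpm1 at 13.5 ± 1.60 could not be ordered beyond their spread in WT, and Gfi1b at 1.79 ± 1.19 overlapped Gata1 at 0.529 ± 0.482. In E531R the order below Erg was Tal1 at 36.1 ± 3.57, Gfi1b at 11.9 ± 1.09, Zfpm1 at 9.0 ± 1.14 and Gata2 at 6.07 ± 1.15, with no overlap between neighbours, and Gata1 came last at 0.095 ± 0.165. Per kilobase, Gfi1b was below Gata2 in all WT libraries and above it in all E531R libraries. This crossing depends on the division by length. In normalised read counts Gfi1b stayed below Gata2 in E531R, at 22.2, 23.4 and 19.5 against 29.2, 29.2 and 39.9. It also stayed below Zfpm1 there, at 36.1, 29.2 and 29.2. The lengths are those of all annotated exons of a gene together, so levels of genes with many alternative exons are understated.

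**Figure D3:**
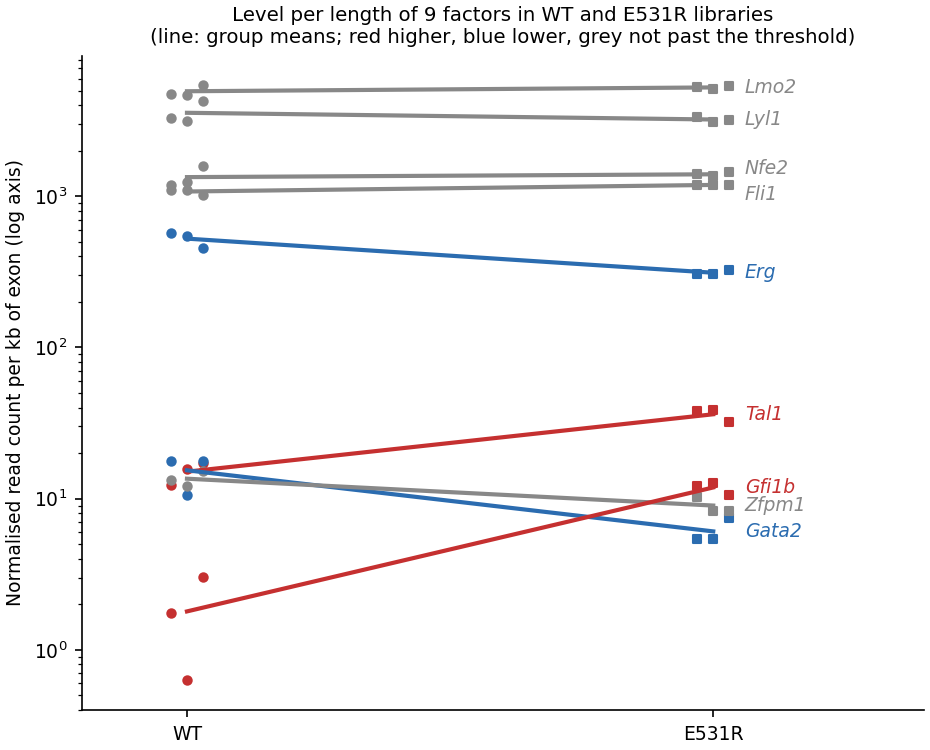
Normalised read count per kilobase of exon on a log y axis for the 9 tested factors in WT (left, circles) and E531R (right, squares), with lines between group means, red for higher, blue for lower and grey for not past the threshold. Erg, at 524 and 312, lies above the 4 factors beneath it in both groups, and the lines of Gata2 and Gfi1b cross.

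The counts of the gene lists that follow stand beside 10.4% higher and 9.53% lower over all tested genes, and beside 24.4% and 22.9% where WT replicate 3 was left out. Of 19 tested partners of these factors in their complexes, 2 rose (10.5%) and 2 fell (10.5%), shares near those of all genes, with a median log2 fold change of -0.05. Runx1, a DNA-binding factor of the same enhancers, had 1435, 1437 and 1367 in WT and 2046, 2061 and 2041 in E531R, a log2 fold change of 0.54 (adjusted p = 0.00107 with limma; SE 0.062). Ssbp2, a protein that steadies LDB1, fell from 508 ± 63.9 to 150 ± 19.7 (SD, n = 3 per group), the strongest fall of the list (adjusted p = 0.000213 with limma). Both held without any 1 library. Ctbp2, a corepressor, and Kdm1a, the histone demethylase recruited by GFI1B, had log2 fold changes of 0.26 and -0.22 (adjusted p = 0.0404 and 0.0466 with limma). Kdm1a did not pass with edgeR, DESeq2 or voom on recovered reads (adjusted p = 0.0517, 0.0812 and 0.0514), nor Ctbp2 at upper-quartile rescaling (0.0626), nor either with no filter on low values (0.094 and 0.0696). Both calls were also lost without WT replicate 1 or 2 or any 1 E531R library, which left 1 higher and 1 lower, while without WT replicate 3 there were 4 and 4. The bridging gene Ldb1 had a log2 fold change of -0.18 and the corepressor gene Cbfa2t3 one of -0.13 (adjusted p = 0.321 and 0.299 with limma), and the E protein genes Tcf3, Tcf4 and Tcf12 lay between -0.07 and 0.10; Tcf4 passed without WT replicate 3, at -0.33 (adjusted p = 2.32e-05). Runx1t1 was at 0 in all 6 libraries.

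Of 7 tested relatives of the 10 factors, 1 rose and 1 fell (14.3% each, against 10.4% and 9.53% over all genes): Gfi1, the relative of Gfi1b with a role in neutrophils, at a log2 fold change of 0.33, and Runx3 at -0.32 (adjusted p = 0.0211 and 0.0463 with limma). The Gfi1 call was lost without WT replicate 1 or 2 or any 1 E531R library, and the Runx3 call without WT replicate 1 or any 1 E531R library or with no filter on low values (adjusted p = 0.0618); without WT replicate 3 there were 3 higher and 2 lower. Gata4, Gata6 and Lmo3 were at 0 in all libraries. Of 14 tested ETS genes beside Fli1 and Erg, 2 rose (14.3%) and 1 fell (7.14%), again near the shares over all genes. Elk3, a repressor of the family, fell from 991 ± 42.3 to 639 ± 23.4 (SD, n = 3 per group; adjusted p = 0.00111 with limma). Spi1, the gene of PU.1, which opposes GATA factors in myeloid cells, had 4944, 4862 and 7013 in WT and 8397, 7968 and 8669.7 in E531R. Its log2 fold change of 0.59 passed (adjusted p = 0.0304 with limma) and did not pass without WT replicate 1 or 2 (0.0986 and 0.0814) or E531R replicate 1, 2 or 3 (0.11, 0.0892 and 0.119). Elf4, at 0.34 (adjusted p = 0.0131 with limma), was lost without WT replicate 1 or E531R replicate 1 or 2. The ETS list had, without WT replicate 3, 5 higher and 5 lower.

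Of the small MAF and BACH genes, whose proteins pair with NFE2 or compete for its sites, 2 of 4 tested rose and 0 fell, where 10.4% and 9.53% of all genes did. Maff and Mafg had log2 fold changes of 0.83 and 0.23 (adjusted p = 0.0392 and 0.044 with limma). Neither passed without WT replicate 1 or 2 or any 1 E531R library, nor did Mafg with no filter or at upper-quartile rescaling (adjusted p = 0.0934 and 0.0665). Mafk and Bach1 had -0.07 and 0.03 and did not pass.

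The list of red cell genes, many of them switched on by GATA1 and TAL1 in red cell precursors, held 24 names. Of these, 23 were among the gene rows. At 0 in all 6 libraries were 10, among them the globin genes Hbb-bs, Hba-a1 and Hba-a2. Only 6 could be tested, of which 1 was higher and 1 lower (16.7% each, against 10.4% and 9.53% over all genes). Hemgn, a nuclear protein gene of early blood cells, rose from 8.22 ± 4.41 to 46.9 ± 5.18 (SD, n = 3 per group; adjusted p = 0.00665 with limma), reaching the minimum mean only through its E531R values. Icam4, a red cell adhesion gene at 16.1 ± 3.97 and 6.63 ± 0.323, passed toward lower values (adjusted p = 0.0272 with limma), which was lost with DESeq2 on recovered reads (0.115), with no filter (0.0641) and without WT replicate 2 or any 1 E531R library. Icam4 reached the minimum mean only through its WT values, and without WT replicate 3 its mean was too low for testing. Klf1, the erythroid factor that works beside GATA1, had 17.6, 13.8 and 20.5 in WT and 11.8, 16.5 and 16.5 in E531R (adjusted p = 0.637 with limma). The summed level of the list was 1018 to 1185 in WT and 1041 to 1106 in E531R libraries, most of it from Gypc, at 836 to 984 in WT and 771 to 812 in E531R. Without WT replicate 3 there were 2 higher and 0 lower.

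Megakaryocyte genes, many of them targets of FLI1, GATA1 and NFE2, rose in 8 members and fell in 2 of the 12 tested, 66.7% and 16.7% where 10.4% and 9.53% of all genes did, with a median log2 fold change of 1.80 against 0.01 over all tested genes. Gp1bb, a subunit of the platelet receptor for von Willebrand factor, had 6.39, 5.74 and 4.72 in WT and 52.8, 41.8 and 50.6 in E531R (adjusted p = 0.00017 with limma). Plek, a signalling protein gene of platelets and leukocytes, rose from 500.3 ± 100.4 to 2534 ± 125 (SD, n = 3 per group). Cd9 rose from 569 ± 74.2 to 1671 ± 68.6 and Vwf from 85.9 ± 14.5 to 355 ± 23.0 (adjusted p = 9.61e-05 and 0.000111 with limma). Pf4, a platelet chemokine gene, rose from 5.48 ± 2.84 to 27.6 ± 7.05. Gp1bb, Pf4 and Selp reached the minimum mean only through E531R. The lineage-defining gene Itga2b was low in both groups, at 5.59 ± 2.16 in WT and 5.79 ± 1.60 in E531R. Gp6 was at 0 in all libraries. The falls of Thbs1 and Gng11 (adjusted p = 0.0234 and 0.026 with limma) were lost without WT replicate 2 or E531R replicate 2 or 3, Thbs1 also without WT replicate 1 and Gng11 also without E531R replicate 1. Without WT replicate 3 there were 10 higher and 2 lower of 13. A megakaryocyte list was already known to be higher in these data, so this count is no independent evidence.

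Mast cell, basophil and eosinophil genes, several of which need GATA2, had 1 higher and 1 lower of 6 tested (16.7% each, against 10.4% and 9.53% over all genes). The eosinophil and macrophage lectin gene Siglecf rose from 55.3 ± 8.79 to 132 ± 7.39, and the basophil protease gene Mcpt8 fell from 129.7 ± 12.8 to 68.4 ± 10.2 (SD, n = 3 per group; adjusted p = 0.00143 and 0.00625 with limma). Without WT replicate 3 there were 1 higher and 3 lower. Fcer1a, Cma1, Prss34 and Il5ra were at 0 in all libraries. Of 18 stem cell genes only 9 were tested, with 3 higher (33.3%) and 0 lower. Cd34 had a log2 fold change of 1.01 and Procr one of 2.47 (adjusted p = 0.00132 and 0.00526 with limma). Procr reached the minimum mean only through E531R. The third higher call was Gfi1, with the losses given above. The counts leave out genes under the minimum mean. Of these, Prdm16, Hlf and Slamf1 had E531R values wholly below WT, and Mecom and Mycn wholly above. Slamf1 went from 8.19 ± 2.98 to 1.44 ± 0.488 (SD, n = 3 per group). Myb, a factor of progenitor growth, had -0.34 (adjusted p = 0.0532 with limma) and passed with DESeq2 on recovered reads (adjusted p = 0.0439), at upper-quartile rescaling (0.0404) and without WT replicate 3, at -0.44 (adjusted p = 3.43e-08). Leaving that library out gave 4 higher and 1 lower.

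Endothelial cells also use Tal1, Lyl1, Lmo2, Gata2, Fli1 and Erg. Of 12 endothelial markers, Emcn, Robo4, Sox17 and Sox18 were at 0 in all libraries, Cdh5 was at most 2.36 and Kdr at most 1.39 in any library. The 3 that could be tested were Pecam1, which blood cells also express, Egfl7 and Tie1. Pecam1 fell from 5850.1 ± 419 to 1460.2 ± 57.7 (SD, n = 3 per group; adjusted p = 1.07e-05 with limma), and Egfl7 and Tie1 had log2 fold changes of -0.54 and -0.37 (adjusted p = 0.0598 and 0.0655 with limma). Egfl7 passed without WT replicate 2 and with DESeq2, and Egfl7 and Tie1 without WT replicate 3 and at upper-quartile rescaling, for 2 and 3 lower. The summed level of the list, mostly Pecam1, ran from 5912 to 6922 in WT and from 1769 to 1893 in E531R, alongside the fall of Erg, and its part in that fall was not tested. Lymphoid markers had 1 higher (Il7r, tested only through its E531R values) and 1 lower (Nkg7) of 2 tested of 12, and stroma markers 0 higher and 1 lower (Pdgfrb) of 3 tested of 10. With so few tested, no share of these marker lists is read against the 10.4% and 9.53% over all genes.

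**Figure D4:**
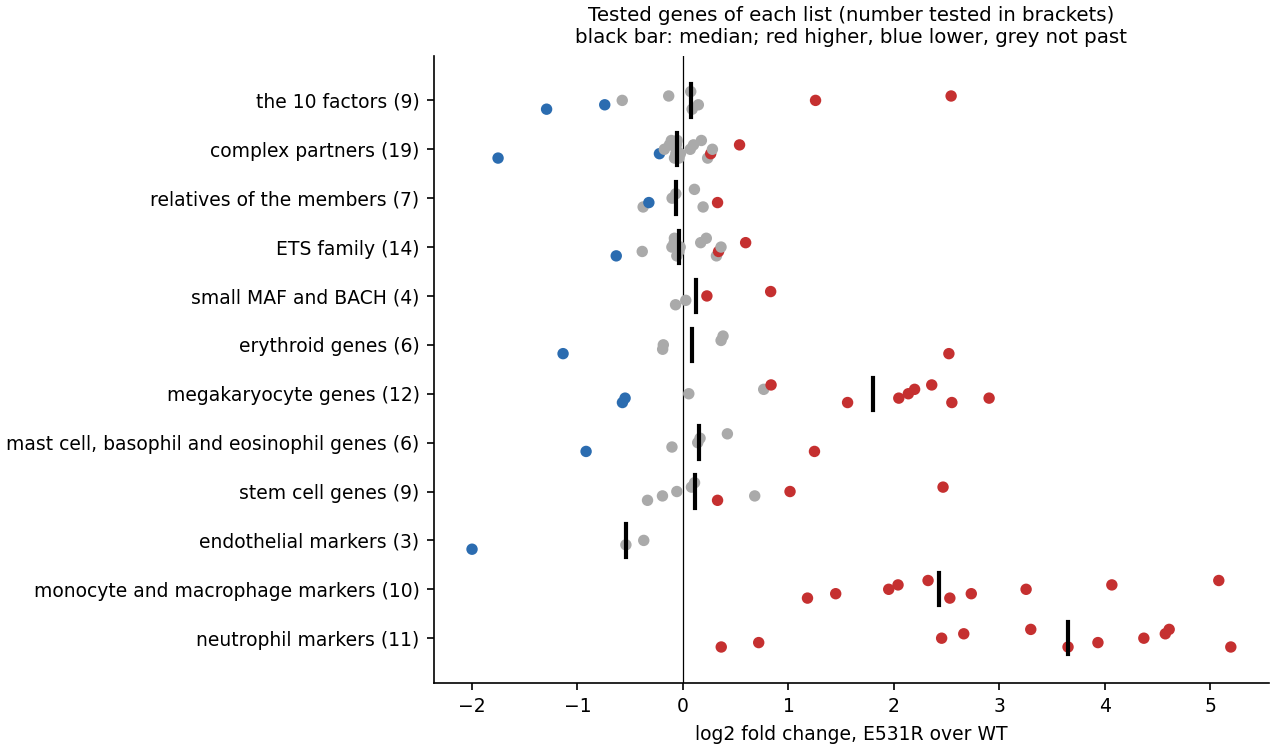
Log2 fold change of E531R over WT (x axis) of each tested gene in 12 lists (rows, with the number tested in brackets), red for higher, blue for lower and grey for not past the threshold; black bars are medians. The medians of the macrophage and neutrophil markers lie at 2.43 and 3.65 and that of the megakaryocyte genes at 1.80, while those of the complex partners and ETS family lie at -0.05 and -0.03.

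By distance over the 6 libraries (Euclidean, on log2 values centred per gene, among 9767 genes with a mean of at least 100), the genes nearest to Tal1 were Nos1ap, Irs2 and Gm7694, at 0.171, 0.263 and 0.268. Those nearest to Erg were Nhsl2, D16Ertd472e and Akap12, at 0.121, 0.144 and 0.148. Tal1 and Erg are the factors with the smallest p in each direction. With 2 groups of 3 libraries such likeness is mostly that of the group difference, and it is given as a description.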

How the data were processed

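The submitters' processing notes name HISAT2 and featureCounts for GRCm38, with FastQC, cutadapt, SAMtools and DESeq2; they give no versions, annotation or strand setting. The authors deposited 1 table of 47593 genes with 6 columns of unit signal, gene read counts divided by 1 size factor per library. All values (100% within 0.001 reads) were whole multiples of 1 read, so whole reads were recovered. Per the file headers the deposited table also holds the authors' DESeq2 log2 fold change, its standard error and the Wald statistic (a score, not used here). It holds the authors' p-value and adjusted p-value too. The fold change is WT over E531R and is turned here. For genes with few reads it ran smaller than with limma. Prdm16, with 43 WT reads and 0 E531R reads, had -2.03 there and -4.07 with limma and no filter.

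The test was limma 3.58.1 (R 4.3.3) (eBayes with trend) on log2(value + 1), two-sided, over the 12991 genes with a mean of at least 10, with Benjamini-Hochberg adjustment over all of them and a threshold of 0.05. On recovered reads edgeR 4.0.16 called 1393 genes higher and 1251 lower. Other alternatives were DESeq2 1.42.0, voom, TMM and upper-quartile rescaling, a pseudocount of 0.5 or 10, a minimum mean of 50 or none, the replicate number as a block, and leaving out each library. Size factors hide a shift shared by all genes. Depth was 14161139 to 33459668 reads, and recovered reads are not independent molecules. Positions and exon lengths are from GENCODE M21 (GRCm38), matched by symbol for all 10 factors; promoter windows are from RefSeq (GRCm38.p6).

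The 10 factors, the 13 lists with 194 gene names and the choice of tests were made with earlier results of these data known. Named genes are all 10 factors, Runx1, Ldb1, Cbfa2t3, Spi1, Klf1, up to 4 members of each list with the smallest adjusted p, and the 3 genes nearest to 1 factor in each direction; other genes named were picked with their values in view. No set test was made.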

Additional observations from a re-analysis of the deposited data

How the results depend on the processing

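Over 15 or 16 alternatives for each tested factor, the calls of Tal1, Erg and Gfi1b held in all that could test them, Gata2 lost its call without E531R replicate 1 or 2, and Lmo2, Fli1 and Nfe2 gained one without WT replicate 3; 136 of the 142 values kept direction and side of the threshold. The count of factors was 2 to 5 higher and 1 to 2 lower when 1 library was left out, and 1 higher at a mean of at least 50, where Gfi1b and Zfpm1 were no longer tested. Over all genes, leaving out 1 library gave 804 to 3169 higher and 764 to 2974 lower; the most, 3169 and 2974, came without WT replicate 3, and the fewest, 804 and 764, without E531R replicate 1 (814 and 769 without replicate 2, 823 and 806 without replicate 3). These fits hold fewer samples.

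Signs reversed, none of them past the threshold, for Nfe2 without WT replicate 1 (-0.0036; range when 1 library was left out -0.0036 to 0.20), Mafk without WT replicate 3 (0.011; range -0.13 to 0.011), and Bach1 at upper-quartile rescaling (-0.0042) and without WT replicate 3 or E531R replicate 2 (-0.10 and -0.0012; range -0.10 to 0.13), Tcf12 without WT replicate 3 (-0.0071; range -0.0071 to 0.17), Tcf3 without WT replicate 3 (0.095; range -0.15 to 0.095) and Tcf4 without WT replicate 1 or 2 (0.036 and 0.087; range -0.33 to 0.087); the cause was not tested. Deviations of same-numbered libraries correlated across genes at r = 0.19 and 0.24 in replicates 2 and 3 and at 0.0017 in replicate 1. WT replicate 1 did not correlate best with its own number. Its r with E531R replicate 2 was 0.18, near that within replicate 2, so the number is not taken as a pairing. With the replicate number as a block, 1179 genes were higher and 1062 lower, and the factors had 2 higher and 2 lower; among the named list genes Ctbp2, Kdm1a, Maff, Mafg, Runx3 and Icam4 were then not past the threshold (adjusted p by limma = 0.0883, 0.115, 0.0543, 0.112, 0.0766 and 0.0622). List counts and most named list genes were put through the same alternatives after the data were seen. Of 600 values for these genes, 515 kept direction and side, 66 lost and 11 gained the threshold and 8 changed sign. In the authors' deposited DESeq2 values, Ctbp2, Kdm1a, Mafg, Runx3 and Icam4 did not pass (adjusted p = 0.0993, 0.154, 0.135, 0.0575 and 0.117). Egfl7 and Myb did pass there (adjusted p = 0.0243 and 0.0465 with DESeq2). Outlier rules need at least 4 samples in a group and could not be applied to groups of 3. Counts limit Gata1 (5 reads in all), Gfi1b and Zfpm1.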

Other observations

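Among the stem cell genes under the minimum mean for testing, 6 were read in 1 group only, 3 of them with at least 20 reads, a minimum set with the values in view. Prdm16, a zinc finger factor gene of stem cells, had 10, 16 and 17 reads in the WT libraries and 0 in each E531R library, at least 18.1-fold lower when the E531R group is set to 3 reads in all. Mecom, the gene of the zinc finger factor EVI1 of stem cells and of some MLL-rearranged leukaemias, had 0 reads in each WT library and 15, 12 and 14 in the E531R libraries, at least 10.8-fold higher with the WT group set to 3 reads in all. Hlf, a PAR bZIP factor gene of stem cells, had 4, 6 and 10 reads in WT and 0 in each E531R library, at least 8.42-fold lower by the same floor for the E531R group. The other 3 were Mycn and Hoxb5, with 4 reads each over the E531R libraries, and Tek, with 1 read in WT. With no filter on low values Prdm16, Mecom and Hlf passed limma (adjusted p = 0.000133, 0.000227 and 0.000686), and the authors' deposited table gives adjusted p-values of 1.31e-06, 0.000198 and 0.0057. Mycn, Hoxb5 and Tek did not pass. All 6 were picked for having reads in 1 group only in these same libraries, so these p-values are no independent evidence. The bounds allow for counting error in the group without reads only. They take the other group at its observed reads and leave out the spread between libraries.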
